A study of Mus musculus with 6 samples.

Results

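Nuclear pore and nuclear transport genes were described in cells sorted from growing mouse liver. The list held every gene whose platform symbol starts with Nup, Kpna, Kpnb, Ipo, Xpo or Tnpo followed by a digit, together with Cse1l, Ndc1, Pom121, Aaas, Rae1 and Seh1l, and it came to 48 of the 19938 genes measured. Tpr and Nup35, which the rule also covers, were not analysed here. The cells came from weaned CyclinB1-GFP transgenic mice, aged 3.5 weeks, whose GFP reporter takes its name from cyclin B1 (this cyclin builds up ahead of mitosis and is destroyed in its course). The promoter that drives the reporter is not given in the sources used here. Livers of 3 mice were dissociated and sorted by fluorescence into GFP-negative cells, called quiescent by the submitters, and GFP-positive cells, called replicating, so that both groups share the genotype, age and tissue and differ in the reporter signal. RNA of each fraction was amplified and hybridised to 1 Affymetrix array, giving 3 arrays per group. The arrays contrast liver cells with and without the reporter signal, and whether all GFP-negative cells were resting was not tested.

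The nuclear pore is the channel through the nuclear envelope. Its proteins, the nucleoporins, form a scaffold of stacked rings (the Y complex on both faces, the inner ring between them), a membrane ring that anchors it, a central channel filled with flexible repeats, cytoplasmic filaments and a nuclear basket. Importins and exportins carry cargo through the channel, and the GTPase Ran sets the direction by loading and unloading them. In animal cells the pore is taken apart at mitosis and rebuilt afterwards, its components are doubled before division, and several of its proteins and carriers also work at kinetochores and on the spindle while the envelope is open.

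Values below are log2 of the deposited intensities, written as mean ± SD over n = 3 arrays, and each difference, given as GFP-positive minus GFP-negative, carries its SE from limma. A gene is said to have risen or fallen where its limma p, Benjamini-Hochberg adjusted over all 19938 genes, was below 0.05. Levels of different probe sets are not comparable, so only differences are set side by side between genes. A higher level in a sorted fraction can come from more cells with the transcript or from more transcript per cell, which cannot be told apart in these bulk samples.

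The sort and the tissue were checked first. All 8 proliferation genes examined (Mki67, Cdk1, Top2a, Aurkb, Plk1, Bub1, Ccna2 and Rrm2) rose, with differences of 2.49 to 4.51, and Ccnb1 was not analysed here. Mean levels of 7 hepatocyte genes such as Alb and Apoa1 lay between 12.08 and 12.21 in GFP-negative and between 11.96 and 12.14 in GFP-positive arrays. None passed the test (lowest limma adjusted p = 0.81), and 0 had an unadjusted p below 0.05. The difference lay above 0 in 1 of the 7, against 44.3% of all genes, and the lowest was -0.18. All GFP-negative arrays lay above all GFP-positive arrays in 3 of the 7, against 6.98% of all genes. The mean level of 8 Kupffer cell markers was 4.05 to 4.50 and 4.11 to 4.19, with Clec4f the single call, lower in GFP-positive cells (limma adjusted p = 0.032, or 0.077 with the replicate number as a block). It was 5.14 to 5.40 and 4.94 to 5.02 for 8 endothelial markers and 5.30 to 5.42 and 4.95 to 5.20 for 8 stellate cell markers, with no call in either list. In the Kupffer, endothelial and stellate lists 2 genes each had an unadjusted p below 0.05, all of them lower in GFP-positive cells. Cholangiocyte, lymphoid, erythroid and neutrophil lists had no call, and in them 0, 0, 1 and 1 genes had an unadjusted p below 0.05. Those genes, Car1 and S100a8, were also lower in GFP-positive cells. All neutrophil, 5 of 6 lymphoid, 4 of 5 cholangiocyte and 7 of 8 Kupffer markers lay below the array medians (4.60 to 4.74) in at least 1 group, as did 2 of the 48 transport genes. The part that cells of these types play in the results below was not tested.

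Of the 48 genes, 6 rose in GFP-positive cells and none fell (0 of 48, with 0 unadjusted p below 0.05 on that side). The 6 were the importin alpha gene Kpna2, the membrane nucleoporin gene Ndc1, the exportin genes Xpo1 and Cse1l, and the Y complex genes Nup107 and Nup160. Over all genes 1.55% rose and 0.115% fell. Without a call on single genes, all 3 GFP-positive arrays lay above all 3 GFP-negative arrays in 17 of the 48, against 6.82% of all genes, and below them in 1, against 6.98%. An unadjusted p below 0.05 with a higher level in GFP-positive cells was found in 18 of the 48, against 5.01% of all genes. With array weights, which let arrays count unequally, 11 of the 48 rose, against 2.03% of all genes. The difference lay above 0 in 37 of the 48, against 44.3% of all genes. These shares compare sets of unlike level: 9094 of the 19938 genes lay below the array medians in at least 1 group, against 2 of the 48. Without the third of genes with the lowest mean, 313 of 13292 genes rose, and 7 of the 47 listed genes that were left. The median difference was 0.22 for the 48 genes and -0.03 for all genes. The 24 nucleoporin genes with an assigned place in the pore had a median of 0.47, and 13 of them did not overlap between the groups on the higher side. The 23 carrier genes had a median of 0.09, and 4 of them did so.

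**Figure D1:**
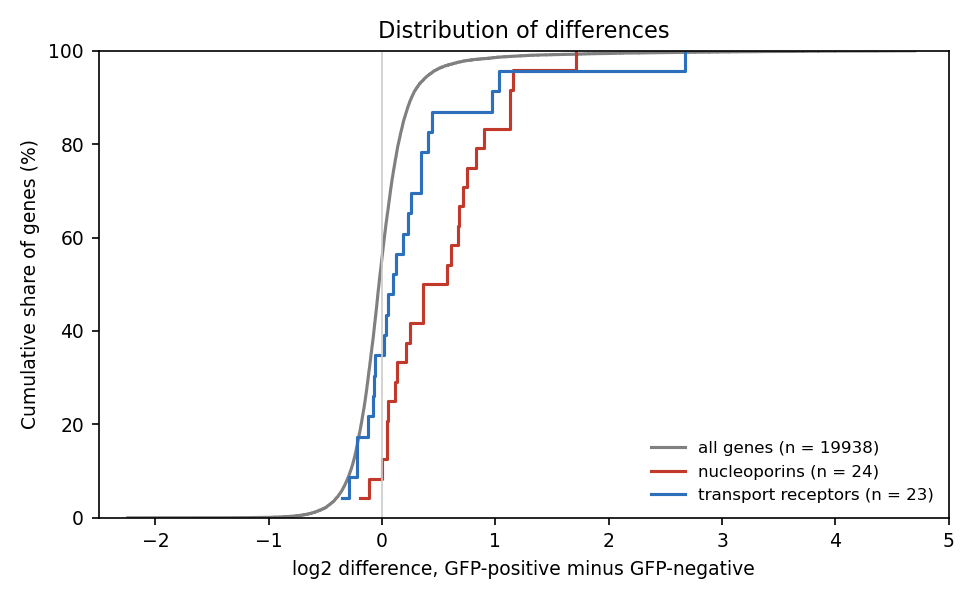
Cumulative share of genes (y axis, percent) against the log2 difference, GFP-positive minus GFP-negative (x axis), for all 19938 genes, 24 nucleoporin genes and 23 carrier genes. The nucleoporin curve lies to the right of that of all genes, with a median of 0.47 against -0.03, while the carrier curve has a median of 0.09 and a few genes far to the right.

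**Figure D2:**
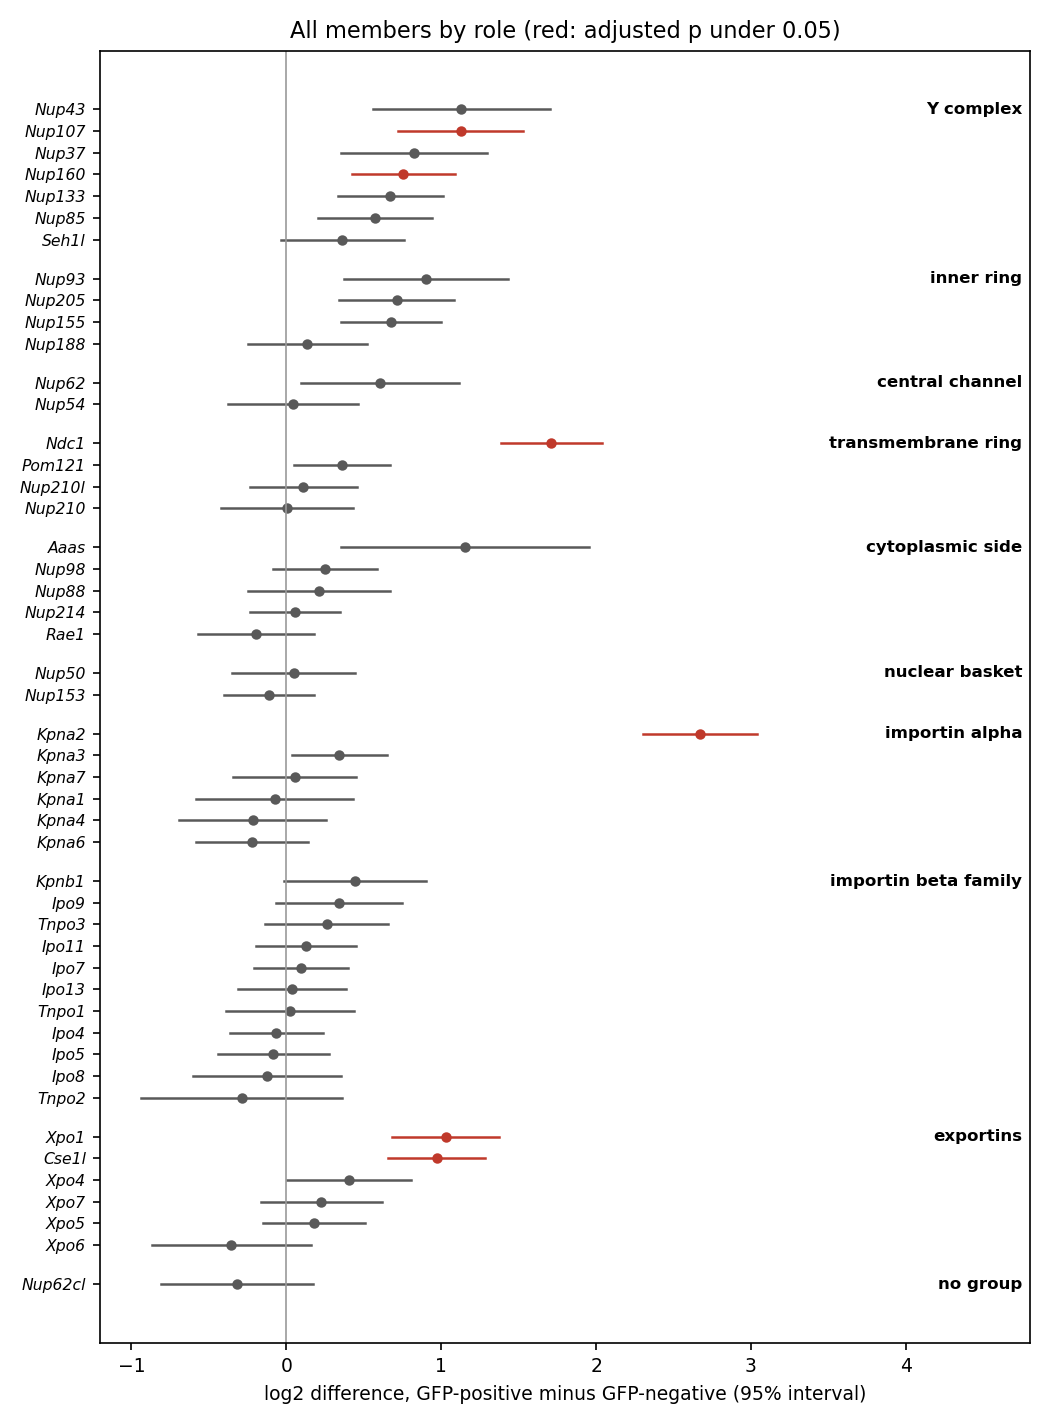
Log2 difference of each of the 48 genes (x axis) with its 95% confidence interval, grouped by place in the pore or carrier family, with genes past the adjusted threshold in red. The 6 red genes lie between 0.75 (Nup160) and 2.67 (Kpna2), and the Y complex genes on the list all lie to the right of 0.

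The upstream sequences of 3 of the genes that rose are shown because they hold letters known from promoters of cell cycle genes: TTTGAA, the core of the element called CHR, and ATTGG, the reversed CCAAT box. They are the 250 bases before the annotated start, on the gene's own strand, from RefSeq on GRCm38.p6, with matches to either motif on either strand in capitals (so TTCAAA and CCAAT are matches read on the other strand). Kpna2 is on the minus strand (chr11:106999526-106999775), Ndc1 on the plus strand (chr4:107367797-107368046) and Xpo1 on the plus strand (chr11:23255791-23256040).
Kpna2: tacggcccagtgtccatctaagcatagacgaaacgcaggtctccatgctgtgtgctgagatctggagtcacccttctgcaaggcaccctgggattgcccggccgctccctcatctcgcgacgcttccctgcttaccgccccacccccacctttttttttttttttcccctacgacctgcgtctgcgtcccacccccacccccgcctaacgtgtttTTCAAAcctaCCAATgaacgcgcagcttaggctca
Ndc1: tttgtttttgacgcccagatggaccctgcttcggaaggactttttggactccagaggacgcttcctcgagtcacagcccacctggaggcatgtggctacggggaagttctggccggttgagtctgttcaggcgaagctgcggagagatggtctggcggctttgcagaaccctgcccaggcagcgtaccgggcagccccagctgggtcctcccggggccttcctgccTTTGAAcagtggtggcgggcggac
Xpo1: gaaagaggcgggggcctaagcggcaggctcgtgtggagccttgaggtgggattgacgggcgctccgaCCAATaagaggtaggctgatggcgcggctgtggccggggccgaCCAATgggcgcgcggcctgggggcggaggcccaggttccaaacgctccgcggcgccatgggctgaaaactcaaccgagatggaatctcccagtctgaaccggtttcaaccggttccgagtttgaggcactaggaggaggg
Positions are counted from the start, with -1 as the last base before it. In Kpna2 the TTTGAA match began at position -35 and a CCAAT match at -25, and a further CCAAT match began 7 bases into the transcript. In Ndc1 the TTTGAA match began at -24 and no ATTGG match was found. Xpo1 had 2 CCAAT matches, which began at -183 and -140, and no TTTGAA match. Windows of 300 bases (250 before and 50 after the start) were at hand for 38 of the 48 genes, 5 of them among the genes that rose, since Cse1l had none. TTTGAA was found in 9 of the 38 genes (23.7%), against 20.2% of all 27025 genes of the table, with Kpna2 and Ndc1 among the 5 that rose and 7 among the 33 others. ATTGG was found in 20 of the 38 (52.6%), against 41.1% of all genes, with Kpna2 and Xpo1 among the 5 and 18 among the 33. Nup107 and Nup160 held neither. An E2F-like motif of 8 bases, searched in 3 forms, was found in Ipo7 and Nup210 and in 2.12% of all genes. These matches describe letters in a window and do not show a bound site.

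Importin alpha proteins hold the nuclear localisation signal of a cargo and bring it to importin beta. Among their genes Kpna2, which encodes importin alpha 1, had the largest difference of all 48 genes. Its probe set with the highest mean (10497503) read 8.39, 8.40 and 7.94 in GFP-negative arrays 1 to 3 and 10.86, 11.03 and 10.87 in GFP-positive arrays 1 to 3. The lowest GFP-positive array stood far above the highest GFP-negative array. The means were 8.24 ± 0.26 and 10.92 ± 0.09, a difference of 2.67 ± 0.16 or 6.38-fold (limma adjusted p = 1.4e-05), which ranked 68 among the 19938 differences. Kpna2 has 3 probe sets to which the platform annotation gives the same accessions, and tested alone they gave differences of 2.62 to 2.67. The mouse gene table also lists a pseudogene, Kpna2-ps, so signal from near-identical copies cannot be separated from that of the gene.

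The other 5 importin alpha genes did not pass the test, so that 1 of 6 rose, against 1.55% of all genes. Kpna3 stood at 6.61, 6.78 and 6.76 in GFP-negative and 7.03, 7.19 and 6.95 in GFP-positive arrays, without overlap, and its difference was 0.34 ± 0.14 (limma adjusted p = 0.48). Kpna1, Kpna4 and Kpna6, which overlapped between the groups, had differences of -0.07 ± 0.23, -0.22 ± 0.21 and -0.22 ± 0.16, with 95% intervals reaching up to 0.43, 0.26 and 0.14. Kpna7, known from oocytes and early embryos, lay below the array medians in both groups (4.51 ± 0.30 and 4.56 ± 0.14). Whether Kpna2 differed from the other 5 in its response was not tested.

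**Figure D3:**
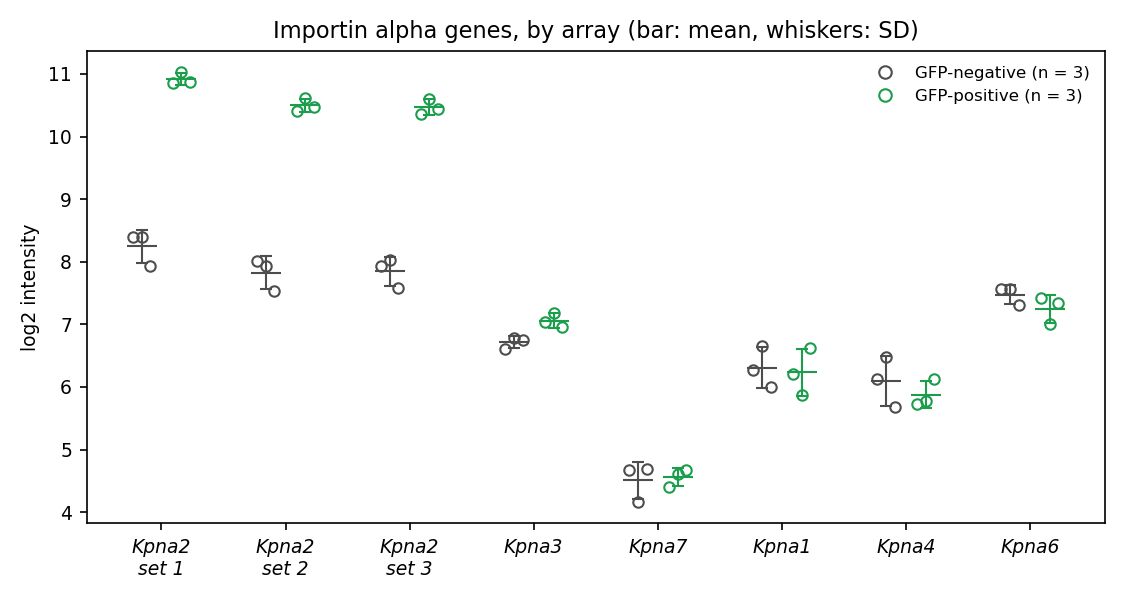
Log2 intensity (y axis) of the 3 Kpna2 probe sets and the other 5 importin alpha genes (x axis) in each GFP-negative (grey) and GFP-positive (green) array, with group means as bars and SD as whiskers. The Kpna2 probe sets are higher in every GFP-positive array by a like amount, 2.62 to 2.67 between the means, while the other genes differ by -0.22 to 0.34.

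The exportins include Cse1l, which returns importin alpha to the cytoplasm once its cargo is released, and Xpo1, the main carrier of proteins with a leucine-rich export signal. Both rose. Cse1l (probe set 10478799) read 8.59, 8.44 and 8.69 in GFP-negative and 9.43, 9.55 and 9.64 in GFP-positive arrays. The groups were well apart and each was tight, and the difference was 0.97 ± 0.14 or 1.96-fold (limma adjusted p = 0.0052). Xpo1 (probe set 10374590) read 7.75, 7.90 and 7.80 against 8.58, 9.01 and 8.94, again without overlap, with a difference of 1.03 ± 0.15 or 2.04-fold (limma adjusted p = 0.0069). Both were called in all 14 alternatives, with adjusted p up to 0.035 for Cse1l and 0.043 for Xpo1. The other 4 exportin genes of the list did not pass, nor did Xpot, an exportin gene outside it (-0.25 ± 0.22, limma adjusted p = 0.87). Xpo4, Xpo5 (the carrier of microRNA precursors) and Xpo7 had differences of 0.40 ± 0.18, 0.18 ± 0.15 and 0.23 ± 0.17, and Xpo6, which exports actin with profilin, had -0.35 ± 0.23, the lowest value of the whole list (limma adjusted p = 0.56 to 0.85 for the 4).

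The 11 genes of the importin beta family had a median difference of 0.04, against -0.03 for all genes, and the groups overlapped in all 11. None passed the test (0 of 11, near the 1.55% of all genes that rose), and 0 had an unadjusted p below 0.05, against 5.01% of all genes on the higher side. Kpnb1, which encodes importin beta itself, had the largest difference of the family. It read 7.58, 7.80 and 7.57 in GFP-negative and 8.50, 7.69 and 8.09 in GFP-positive arrays, where GFP-positive 2 lay within the GFP-negative range. Its difference was 0.44 ± 0.20 (95% interval -0.01 to 0.90, limma adjusted p = 0.59). It was 0.24 without GFP-positive 1 and 0.65 without GFP-positive 2 (limma adjusted p = 0.88 and 0.21). Ipo9 and the importer of splicing factors Tnpo3 had differences of 0.34 ± 0.18 and 0.26 ± 0.18. The other 8, Ipo4, Ipo5, Ipo7, Ipo8, Ipo11, Ipo13, Tnpo1 and Tnpo2, lay between -0.29 (Tnpo2, which had 1 low array, GFP-positive 2 at 5.19) and 0.13 (Ipo11).

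The Y complex is the outer scaffold of the pore, and in mitosis part of it sits at kinetochores. All 7 of its measured genes on the list were higher in each GFP-positive array than in any GFP-negative array, against 6.82% of all genes, and 2 of the 7 passed the adjusted threshold, against 1.55%. The median difference of the 7 was 0.75. Nup107 (probe set 10372687), the gene of a stalk subunit, read 6.24, 5.65 and 6.05 in GFP-negative and 7.05, 6.99 and 7.29 in GFP-positive arrays. Its difference was 1.13 ± 0.18 or 2.18-fold (limma adjusted p = 0.010). Without GFP-positive 3 its adjusted p was 0.055. Nup160 (probe set 10473650), the gene of a subunit in an arm of the Y, read 6.38, 6.48 and 6.31 against 7.29, 6.92 and 7.21. Its difference was 0.75 ± 0.15 or 1.69-fold (limma adjusted p = 0.036). With the replicate number as a block its adjusted p was 0.077, and when arrays were left out it was above 0.05 for each array except GFP-positive 2, at 0.073 to 0.17 against 0.024.

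The other 5 Y complex genes did not pass, although their values did not overlap. Nup43, which encodes a propeller-shaped subunit, read 6.46, 5.996 and 5.79 in GFP-negative and 7.31, 6.69 and 7.63 in GFP-positive arrays. Its difference was as large as that of Nup107 but its spread was wider (1.13 ± 0.25, limma adjusted p = 0.076), and it passed with the replicate block (adjusted p = 0.048) and without GFP-positive 2 (0.017). Nup133, at the end of the stalk and in contact with membrane, differed by 0.67 ± 0.15 (limma adjusted p = 0.076). Nup37 differed by 0.83 ± 0.21 (0.13), Nup85 by 0.57 ± 0.16 (0.20) and Seh1l, whose product also works in nutrient signalling, by 0.36 ± 0.18 (0.62), with the limma adjusted p in parentheses. Genes of Y complex proteins outside the list did not pass either. Ahctf1, which encodes the chromatin-binding subunit ELYS, differed by 0.33 ± 0.13 without overlap (limma adjusted p = 0.45). Sec13, shared with vesicle coats, overlapped between the groups and had a difference below 0 (-0.15 ± 0.18, limma adjusted p = 0.90), unlike the Y complex genes on the list.

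The inner ring links the scaffold to the membrane and the channel. None of its 4 genes passed (0 of 4, near the 1.55% of all genes that rose), while 3 had an unadjusted p below 0.05 on the higher side, against 5.01%, and the same number did not overlap, against 6.82%. Nup155 read 7.19, 7.12 and 6.90 in GFP-negative and 7.75, 7.63 and 7.87 in GFP-positive arrays, a difference of 0.68 ± 0.14 just outside the threshold (limma adjusted p = 0.058). Nup93, the organiser of the ring, had the largest difference of the 4, reading 5.54, 5.28 and 5.42 against 6.38, 5.77 and 6.80. The GFP-positive arrays were spread over more than 1 unit, and the difference of 0.90 ± 0.24 had an adjusted p of 0.14 by limma, or 0.013 without GFP-positive 2. Nup205 differed by 0.71 ± 0.17 (limma adjusted p = 0.089). Its large paralogue Nup188 read 5.03, 4.96 and 4.62 against 4.88, 4.87 and 5.26, which overlapped, with a difference of 0.14 ± 0.17 and a 95% interval of -0.25 to 0.52.

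**Figure D4:**
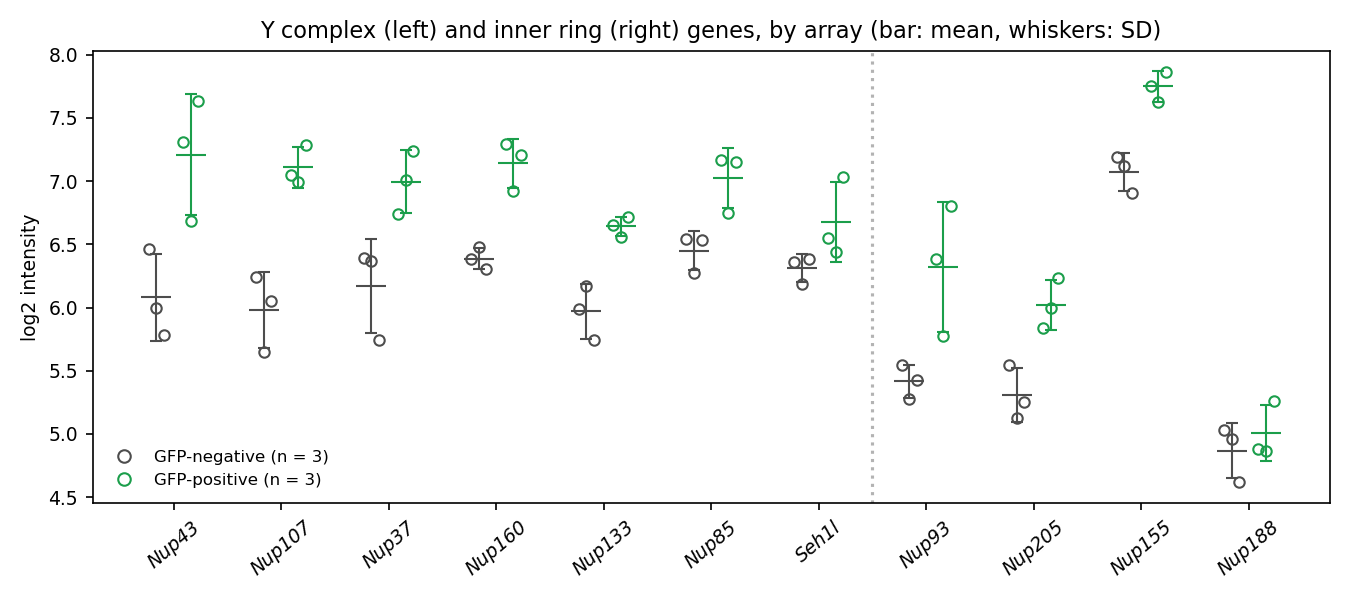
Log2 intensity (y axis) of the 7 Y complex genes (left of the dotted line) and 4 inner ring genes (right) in each GFP-negative (grey) and GFP-positive (green) array, with group means as bars and SD as whiskers. The groups are apart in all genes but Nup188, and the gap between group means runs from 0.36 (Seh1l) to 1.13 (Nup43 and Nup107) in the Y complex.

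Of the 4 genes of the membrane ring, 1 rose (Ndc1), against 1.55% of all genes. Ndc1 (probe set 10506680) encodes a protein that crosses the nuclear membrane and is needed for new pores to insert. It read 5.39, 5.18 and 5.45 in GFP-negative and 6.97, 6.98 and 7.20 in GFP-positive arrays. The groups lay more than 1 unit apart, and the difference was 1.71 ± 0.15 or 3.28-fold (limma adjusted p = 0.00014), the largest of the nucleoporin genes and rank 146 of all 19938. Pom121, another membrane nucleoporin, read 5.23, 5.08 and 5.001 against 5.55, 5.36 and 5.49, without overlap but with a small difference of 0.36 ± 0.14 (limma adjusted p = 0.44). Nup210 differed by 0.00 ± 0.19, with a 95% interval of -0.42 to 0.43. Its paralogue Nup210l, known from testis, differed by 0.11 ± 0.15, and its 9 probe sets ran from -0.19 to 0.17, with none called (lowest adjusted p = 0.80).

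The channel, the cytoplasmic side and the basket had a median difference of 0.06 over 9 genes. None of the 9 was called (0 of 9, near the 1.55% of all genes that rose), and 2 had an unadjusted p below 0.05 on the higher side, against 5.01%. Aaas, which encodes ALADIN, a protein held at the pore by Ndc1, had the largest difference of these. It read 4.56, 5.55 and 6.20 in GFP-negative and 6.61, 6.26 and 6.91 in GFP-positive arrays. The groups did not overlap, but the GFP-negative arrays were far apart, with GFP-negative 1 lowest, and the difference of 1.16 ± 0.36 had an adjusted p of 0.25 by limma. Without GFP-negative 1 the difference was 0.72, and with array weights it was 1.53 (adjusted p = 0.041). Nup62, the core protein of the channel, read 7.85, 7.48 and 7.28 against 8.50, 7.69 and 8.23, with GFP-positive 2 inside the GFP-negative range, and differed by 0.60 ± 0.23 (limma adjusted p = 0.42). Its channel partner Nup54 differed by 0.04 ± 0.19. On the cytoplasmic side, Nup98, Nup88 and Nup214 had differences of 0.25 ± 0.15, 0.21 ± 0.20 and 0.06 ± 0.13. Rae1, which acts in mRNA export and on the spindle, had -0.19 ± 0.17, and its second probe set -0.13 ± 0.16. In the basket, Nup50 differed by 0.05 ± 0.18, and Nup153, read at 7.01, 7.07 and 6.90 against 6.90, 6.86 and 6.89, was the 1 gene of the list with all GFP-negative values higher (-0.11 ± 0.13, limma adjusted p = 0.90). Nup62cl, a gene related to Nup62, lay below the array medians in every array, between 2.33 and 3.26.

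**Figure D5:**
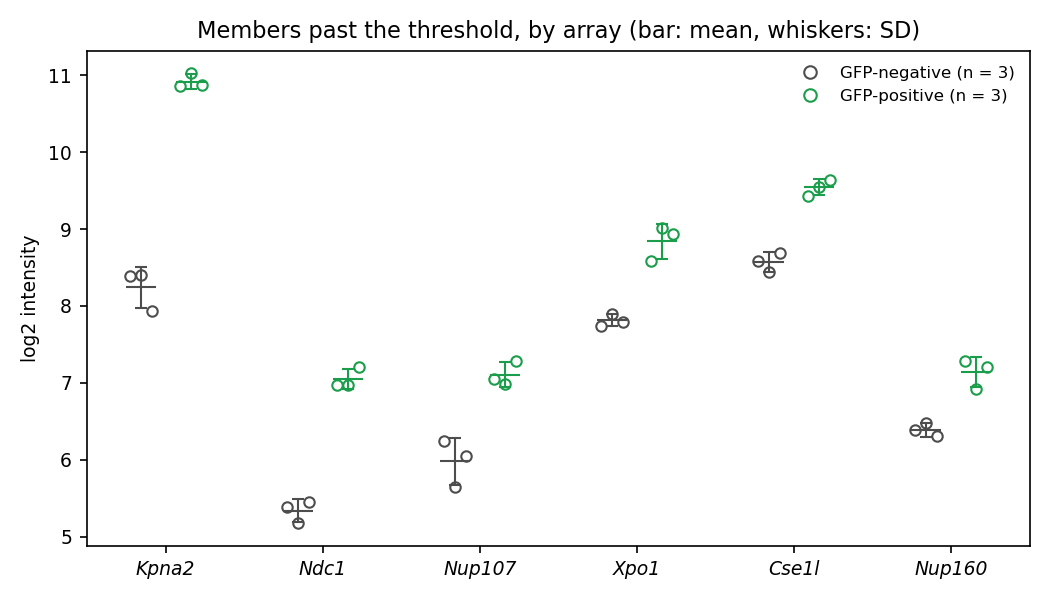
Log2 intensity (y axis) of the 6 genes that rose (x axis, ordered by difference) in each GFP-negative (grey) and GFP-positive (green) array, with group means as bars and SD as whiskers. In each of the 6 the 3 GFP-positive arrays lie above the 3 GFP-negative arrays, with gaps between the means of 2.67 for Kpna2 down to 0.75 for Nup160.

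The genes that drive transport from outside the list had no call. In the list for the Ran cycle 0 of 11 measured genes passed, near the 1.55% of all genes that rose. That list also held Senp1, Senp2 and Pias4, genes of enzymes for the protein tag SUMO, which are not part of the cycle itself. On the higher side 5 of the 11 had an unadjusted p below 0.05, against 5.01% of all genes, and 5 did not overlap between the groups, against 6.82%. Senp1 was counted in each of these (difference 0.55 ± 0.17, limma adjusted p = 0.27). Ranbp1, which helps Ran release its cargo carriers, read 8.64, 8.55 and 8.63 in GFP-negative and 9.31, 8.83 and 9.60 in GFP-positive arrays, the largest difference of the cycle (0.64 ± 0.19, limma adjusted p = 0.24, or 0.037 without GFP-positive 2). Ranbp2, the gene of the large cytoplasmic filament protein, differed by 0.56 ± 0.15 (limma adjusted p = 0.16). Ran itself differed by 0.47 ± 0.14 (0.25) and its activator of hydrolysis Rangap1 by 0.41 ± 0.15 (0.39). Rcc1, which loads Ran with GTP on chromatin, differed by 0.16 ± 0.19 (0.90). Senp2 and Pias4 had differences of 0.25 ± 0.15 and 0.10 ± 0.16. Ranbp3, Rcc2 and Rangrf lay below 0, at -0.10 ± 0.19, -0.13 ± 0.15 and -0.32 ± 0.34, and overlapped between the groups. Of 20 measured mRNA export genes 0 passed and 5 had an unadjusted p below 0.05 on the higher side, against the same shares. Alyref, an adaptor that hands mRNA to the export receptor, read 5.77, 6.61 and 6.81 against 7.14, 7.71 and 7.63. It differed by 1.10 ± 0.27 (limma adjusted p = 0.11), and passed with the replicate block (adjusted p = 0.010). Of 19 other pore and transport genes 0 passed and 4 had an unadjusted p below 0.05 on the higher side, again against 1.55% and 5.01% of all genes. Nemp1, an inner nuclear membrane protein gene, read 4.46, 5.68 and 5.72 against 6.38, 6.79 and 6.36 and differed by 1.22 ± 0.31 (limma adjusted p = 0.13), passing with the replicate block (adjusted p = 0.035). The median differences of these lists were 0.25, 0.25 and -0.05, and the differences ran from -0.32 to 0.64, -0.15 to 1.10 and -0.28 to 1.22. They lay above 0 in 8 of 11, 17 of 20 and 7 of 19 genes, against 44.3% of all genes.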

How the data were processed

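The authors deposited an intensity for each probe set on each array, summarised with RMA per the submitters' processing notes, with no version or settings given in the sources. They are on a linear scale, so log2 was taken and no further normalization or filter was applied. A scaling of arrays to each other, usual in RMA, would remove differences in total RNA between fractions. Array medians were 24.3 to 26.7, and precision is limited by having 3 arrays per group. Of 35512 probe sets, 21789 carry 1 symbol, 1621 several and 12102 none; those with 1 were named, symbols were updated through Entrez identifiers for 21698, and of several probe sets the brightest on average stood for its gene, giving 19938 genes. The 48 listed genes kept their symbols and had 59 probe sets.

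Groups were compared with limma 3.58.1 in R 4.3.3 (group as single term, eBayes without trend, Benjamini-Hochberg over all genes). The fit was also run on simulated data with independent errors and no effect of the mouse. Those data cannot decide between this fit and one with a replicate block. Genes were named by rule: calls, the largest difference in each group of genes, and the rest by value or range. The gene list, role groups and other lists were chosen with earlier results of these data known. The replicates are labelled biological.

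The main fit has no term for the mouse, so its SE, intervals and calls treat the arrays as independent. For the replicate block, numbers were taken to pair arrays of 1 mouse. The design text has both fractions from the same 3 livers, and Xist, at 9.03 and 9.80 in the arrays numbered 2, was at most 4.04 elsewhere. The Y-linked gene Eif2s3y was at 1.98 and 2.24 in the arrays numbered 2 and at 6.78 to 7.31 elsewhere. By these genes the arrays numbered 2 came from a female and the others from males, although the labels give no sex. The part of sex in the values of the arrays numbered 2 was not tested. Deviations from group means correlated by 0.20, 0.06 and -0.05 for numbers 1, 2 and 3, so these correlations do not show the pairing. The sex-linked genes mark it for number 2 only. The block was an alternative, with quantile normalization, median centring, a filter on low means, the mean of all probe sets, each probe set alone, an intensity trend, array weights, other thresholds and leaving out each array. A planned comparison of importin alpha protein sequences was not made. Plots used Python 3.11.15 and matplotlib 3.10.9.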

Additional observations from a re-analysis of the deposited data

How the results depend on the processing

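The count of 6 higher genes was 11 with array weights (2.03% of all genes were then higher). It was 10 at an adjusted threshold of 0.10, and 4 to 8 with single arrays omitted. Of all 19938 genes, 244 to 294 were higher in the fits with an array omitted, against 310 in the main fit. The total was 311 with an intensity trend, 284 with median centring, 307 with quantile normalization and 327 with the replicate block. Without the genes of lowest mean, 313 of 13292 genes were higher. Totals at thresholds of 0.10 and 0.01 are not given here. The same totals apply to the group counts below. Kpna2, Ndc1, Cse1l and Xpo1 were called in all 14 alternatives, Nup107 in 13 and Nup160 in 6. For Nup160, the adjusted p was 0.065 with an intensity trend and 0.082 with median centring. The replicate block changed the calls of Nup160, Nup43, Alyref and Nemp1, as given above, and Clec4f, and of no other gene of the 48; the count of higher genes stayed 6. The Y complex count of 2 was 4 with array weights or a threshold of 0.10, 1 with an intensity trend or median centring, 0 at a threshold of 0.01, and 0 to 3 without single arrays (0 without GFP-positive 3). The inner ring count of 0 was 2 with array weights or a threshold of 0.10, 1 with quantile normalization or without the genes of lowest mean, and 0 to 1 without single arrays. The cytoplasmic side count of 0 was 1 with array weights. Of the other lists, the Ran cycle count of 0 was 0 to 1 without single arrays, and the counts of mRNA export and other pore genes were 1 with array weights and 1 with the replicate block. The median of 0.22 ran from 0.17 to 0.27. The cause of these changes was not tested. No gene that passed changed sign.

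Of the uncalled genes, 12 changed sign in some alternative, where the adjusted p was 0.82 or more. Without single arrays Ipo13 ran from -0.063 to 0.14, Ipo5 from -0.21 to 0.026, Ipo8 from -0.31 to 0.091, Kpna1 from -0.27 to 0.10, Kpna7 from -0.12 to 0.14, Nup210 from -0.17 to 0.14, Nup50 from -0.11 to 0.14, Nup54 from -0.11 to 0.17, Tnpo1 from -0.15 to 0.14 and Tnpo2 from -0.59 to 0.086. Values were -0.022 for Kpna7 and -0.13 for Tnpo1 with array weights, -0.027 for Nup210 and -0.0086 for Tnpo1 with median centring, -0.066 for Nup210, -0.0018 for Nup214, -0.0055 for Nup54 and -0.012 for Tnpo1 with quantile normalization, and -0.016 for Nup210l with the mean of all probe sets. Arrays give no read depth, and no detection calls were at hand, so signal over background is unknown for genes near the array medians such as Kpna7 and Nup188.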
